A study of Gallus gallus with 12 samples.

Results

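The let-7 family of breast muscle was represented by 4 of the 38 miRNAs of the table, namely gga-let-7b, gga-let-7c-5p, gga-let-7f-5p and gga-let-7g-5p, written below without gga, which stands for Gallus gallus. They are all the miRNAs of the table whose name starts with gga-let-7. Small RNA libraries had been made from whole breast muscle of 6 pedigree male broilers (PeM), a line selected for growth and feed efficiency, and of 6 Barred Plymouth Rock chickens (BPR), an unselected breed. Pedigree male is the name of the line. The study's text does not state the sex of the birds, and sex did not enter the comparisons. All birds were labelled as 8 weeks old, each gave 1 library, and the labels name no treatment. The PeM birds came from a breeding company and the BPR birds from a university flock, so breed and source cannot be told apart. Levels are in RPM, the reads of a miRNA scaled to the same fixed total in each bird.

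The let-7 miRNAs are short RNAs that guide the silencing machinery to messenger RNAs, and the members of the family carry the same seed, the stretch near the 5' end that does most of the pairing. They are known from worms to mammals as miRNAs that accumulate when cells stop dividing and differentiate, and the RNA-binding protein LIN28 blocks their maturation in stem cells. Known let-7 targets in mammals include HMGA2, the RAS genes and the IGF2BP genes, which promote growth. The mature sequences of let-7b and let-7c are nearly identical, and let-7f and let-7g differ from them at few further bases, so short reads can be shared between them. No sequences are printed because the sources used for sequence here did not hold them.

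RefSeq (assembly GRCg7b) lists 11 chicken let-7 genes, and the 4 members matched 1 each, MIRLET7B, MIRLET7C, MIRLET7F1 and MIRLET7G. The table holds no entry named for the other 7 genes, among them those named let-7a, let-7d and let-7i. Their products could not be analysed as entries of their own, and the family sum, share and rank below are those of the 4 entries. Whether reads from the other let-7 genes were counted within these 4 entries was not tested. MIRLET7B lies beside MIRLET7A3, and MIRLET7F1 beside MIRLET7D and MIRLET7F2. MIRLET7C lies beside MIR99A and MIR125B2, which is 1 of the genes for miR-125b. MIRLET7G has MIR135A1 as its neighbour and no other let-7 gene within 100000 bases.

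The number of reads behind the table was worked out from its values. In 443 of the 456 entries (97.1%) the RPM was a whole multiple, within 0.005, of what 1 read is worth in that bird. Totals obtained from the steps were 4784 to 12454 reads per BPR bird (median 6963.5) and 3021 to 9120 per PeM bird (median 4134). These totals are far below the clean reads that the study's text describes, for a reason that is not known here, so they are the reads implied by the deposited values and may not be the reads sequenced. All read counts, counting errors and counting intervals below rest on them. PeM bird 16, with 9120 reads, stood apart from the other PeM birds, and BPR bird 4 had the highest level of miR-451, a red blood cell miRNA, at 14861 RPM. The main results are also given without these birds. The other red blood cell marker analysed, miR-16-5p, had no such high value in BPR. It was at 3344.5 to 4982 RPM among BPR birds and at 3509 to 7110 RPM among PeM birds. The muscle miRNAs miR-1a-3p, miR-133a-5p, miR-133c-3p and miR-206, all 4 of the list used as muscle markers, together took 38.3% of the reads in BPR and 37.8% in PeM. Singly they did not all move alike. Mean RPM in BPR and PeM was 334936 and 337939 for miR-1a-3p and 31760 and 23407 for miR-206. It was 9875 and 11030 for miR-133c-3p and 6298 and 6064 for miR-133a-5p. Any pair of libraries correlated across miRNAs at 0.892 to 0.98 in log2(RPM).

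The 4 members together took a similar share of the reads in both breeds. Their summed level was between 57565 and 71203 RPM in BPR, with a median of 64765 RPM, and between 56604 and 79045 RPM in PeM, with a median of 67948 RPM. The BPR range lay within the wider PeM range, since 2 PeM birds were above all BPR birds and 1 was below all of them. In BPR the mean was 64929 ± 5600 RPM, or 6.49% of the reads, and in PeM it was 68160 ± 7919 RPM, or 6.82% (SD over 6 birds each). The difference of the mean log2 sum was 0.07, a fold change of 1.05 (exact permutation test, two-sided, with 924 assignments of the birds, p = 0.459). With the 4 members collapsed to a single entry, limma gave a 95% interval of -0.21 to 0.34 for the same log2 difference (adjusted p = 0.807 over 35 entries). Without BPR bird 4 the difference was 0.06 (exact permutation p = 0.556), without PeM bird 16 it was 0.08 (p = 0.448) and without both it was 0.07 (p = 0.556). In bulk muscle, fewer cells of a type and less of a miRNA per cell cannot be told apart.

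Counted as a single entry, the family would rank 3 by mean RPM over the 12 birds, after miR-1a-3p and miR-30c-5p. In PeM alone the mean of miR-126-3p, 71550 RPM, was above the family mean of 68160 RPM. The family was at rank 3 in 8 of the 12 birds. It was at rank 4 in BPR bird 6 and PeM birds 4 and 16, and at rank 5 in PeM bird 5. The reads behind the sum numbered 312 to 881.8 per BPR bird and 171 to 598.4 per PeM bird. The lowest family share was that of PeM bird 5, also the bird with the fewest reads, at 5.66% with an exact binomial 95% interval of 4.86% to 6.54%. The highest was that of PeM bird 10, at 7.9% with an interval of 7.16% to 8.7%. Such intervals cover counting error only, because amplified reads that carry no molecular identifier need not stem from separate molecules. The SD of the log2 sum between birds of the same breed was 0.149, against a median of 0.391 over the 38 single miRNAs, of which only miR-30c-5p was lower, at 0.130. A sum of 4 entries averages over their separate spread, so the comparison with single miRNAs describes the sum and not its members.

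**Figure D1:**
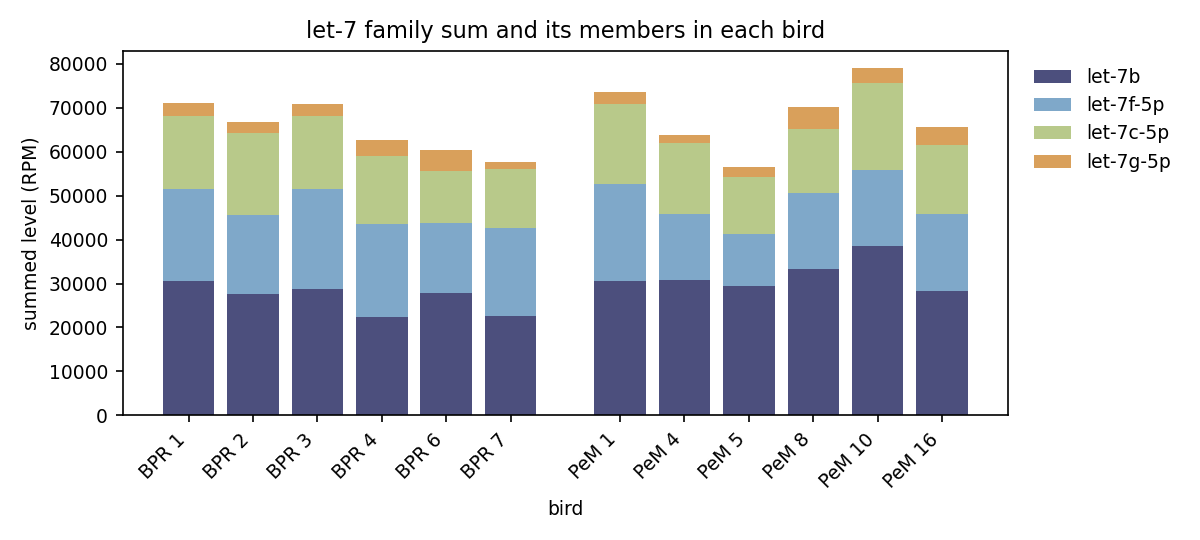
Summed level of the let-7 family in each of the 12 birds in RPM, as stacked bars with 1 colour per member. The sums run from 56604 to 79045 RPM and the breeds overlap, while the let-7b layer is thicker and the let-7f-5p layer thinner in most PeM birds.

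The members took unequal parts of the family sum. Let-7b had the highest RPM of the members in all 12 birds and let-7g-5p the lowest. In BPR the family consisted of 41% let-7b, 30.5% let-7f-5p, 23.8% let-7c-5p and 4.72% let-7g-5p on average over the birds. In PeM it consisted of 46.8% let-7b, 24.6% let-7f-5p, 23.9% let-7c-5p and 4.69% let-7g-5p. The shares of let-7c-5p and let-7g-5p were thus nearly the same in both breeds, and those of let-7b and let-7f-5p moved by nearly the same amount in opposite directions. The share of let-7b was 35.6% to 46.2% in BPR and 41.6% to 52% in PeM, with 4 PeM birds above all BPR birds. The share of let-7f-5p was 26.2% to 34.6% in BPR and 21.1% to 29.8% in PeM, with 4 PeM birds below all BPR birds. Shares of a fixed whole are not independent of each other, and they are given as a description with no test.

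Within each breed the order of the levels was tested bird by bird. The pairs were neighbours in the order of mean RPM over these same birds, so the order tested was taken from the values that test it. The test asks whether an order of RPM recurs over birds. It does not ask whether reads were assigned to the right member, or whether RPM of different miRNAs follows their numbers of molecules. Let-7b exceeded let-7f-5p in 6 of 6 BPR birds, by 1.35-fold on average, and in 6 of 6 PeM birds, by 1.91-fold (exact two-sided sign-flip permutation test, p = 0.0312 in each breed, the smallest that 6 birds allow; adjusted p = 0.0469 over 6 tests). Let-7c-5p exceeded let-7g-5p by 5.34-fold in BPR and 5.36-fold in PeM, in all birds (exact p = 0.0312 and adjusted p = 0.0469 in each breed). The order of let-7f-5p and let-7c-5p did not pass the test in either breed, narrowly so in BPR. Let-7f-5p was the higher of them in 5 of 6 BPR birds (log2 ratio 0.36 ± 0.215, SD, 1.28-fold on average, exact p = 0.0625) and in 3 of 6 PeM birds (1.03-fold, exact p = 0.656).

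Between the breeds, none of the 4 members was called different. The thresholds of the study's methods (fold change above 1.2 together with an unadjusted p below 0.05) were passed by 0 of the 4 members in limma, a linear model of log2(RPM) that moderates each miRNA's variance towards that of all miRNAs. Over all 38 miRNAs, 8 passed, which is 21.1%. None of the members had an unadjusted p under 0.05 in the moderated limma fit (0 of 4), and 1, let-7b, had an exact permutation p under 0.05, as did 23.7% of the 38 miRNAs. The study's methods used t-statistics. In the fit without moderation let-7b had an unadjusted p of 0.0279 and missed the thresholds only by its fold change of 1.196. Mean log2(RPM) was higher in PeM for 3 of the 4 members and for 60.5% of all miRNAs. The median log2 fold change was 0.08 over the members and 0.07 over the 38 miRNAs.

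Let-7b, reported in chickens to act on the growth hormone receptor, was at 22291 to 30518 RPM in BPR (median 27819) and at 28289 to 38493 RPM in PeM (median 30683). The ranges overlapped between 28289 and 30518 RPM only, and 4 PeM birds were above all BPR birds. Its log2 fold change was 0.26 (standard error 0.14, 95% interval -0.04 to 0.55), a fold change of 1.196, with a limma adjusted p of 0.308 and an exact permutation p of 0.0195, or 0.106 after adjustment over the 38 miRNAs. The fit without moderation gave let-7b an unadjusted p of 0.0279, and its limma p was 0.0553 to 0.176 when the 12 birds were left out in turn. The log2 fold change was 0.21 without BPR bird 4 (limma adjusted p = 0.513), 0.29 without PeM bird 16 (limma adjusted p = 0.27) and 0.24 without both (limma adjusted p = 0.517). BPR birds 4 and 7, at 22291 and 22694 RPM, lay below the other BPR birds. The endothelial miR-126-3p, the 1 of 2 endothelial markers analysed, was at 33001 to 70317 RPM among BPR birds and at 68782 to 77127 RPM among PeM birds. Its log2 fold change was 0.57 (limma adjusted p = 0.0283). Its part in the let-7b values was not tested.

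Let-7f-5p, whose gene sits in a cluster with those of let-7a and let-7d, was at 15873 to 22804 RPM in BPR (median 20415) and at 11917 to 21950 RPM in PeM (median 17275). Only 2 PeM birds were below all BPR birds, while PeM bird 1, at 21950 RPM, was higher than 5 of the 6 BPR birds. The log2 fold change was -0.25 (standard error 0.16, 95% interval -0.59 to 0.10), with a limma adjusted p of 0.429 and an exact permutation p of 0.115. The lowest value, that of PeM bird 5, came from 36 reads, for which counting error alone allows 8360 to 16460 RPM.

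Let-7c-5p was at 11905 to 18581 RPM in BPR (median 16064) and at 12910 to 19967 RPM in PeM (median 15946). The breeds overlapped nearly throughout, with 1 PeM bird above all BPR birds and 1 BPR bird below all PeM birds. The log2 fold change was 0.08 (standard error 0.16, 95% interval -0.26 to 0.41, limma adjusted p = 0.823). MiR-125b-5p, whose gene MIR125B2 neighbours MIRLET7C and which has a further gene copy beside MIRLET7A2, averaged 8185 ± 1807 RPM in BPR against 12684 ± 4514 RPM in PeM (SD over 6 birds each). The log2 fold change was 0.59 (limma, standard error 0.22, unadjusted p = 0.0191, adjusted p = 0.104). MiR-125b-5p thus passed the thresholds applied to the members, which use the unadjusted p, and let-7c-5p did not. The ratio of these neighbours was among the ratios of all pairs of miRNAs compared below, and its own result is not given here.

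Let-7g-5p, the member with the lowest RPM, was at 1476 to 4762 RPM in BPR (median 2845) and at 1706 to 5052 RPM in PeM (median 3033). The ranges were nearly the same in both breeds. These values came from 8 to 32.75 reads per BPR bird and 6 to 37.41 reads per PeM bird. The log2 fold change was 0.07 (standard error 0.30, 95% interval -0.57 to 0.71, limma adjusted p = 0.908), an interval that leaves room for sizeable differences in either direction.

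**Figure D2:**
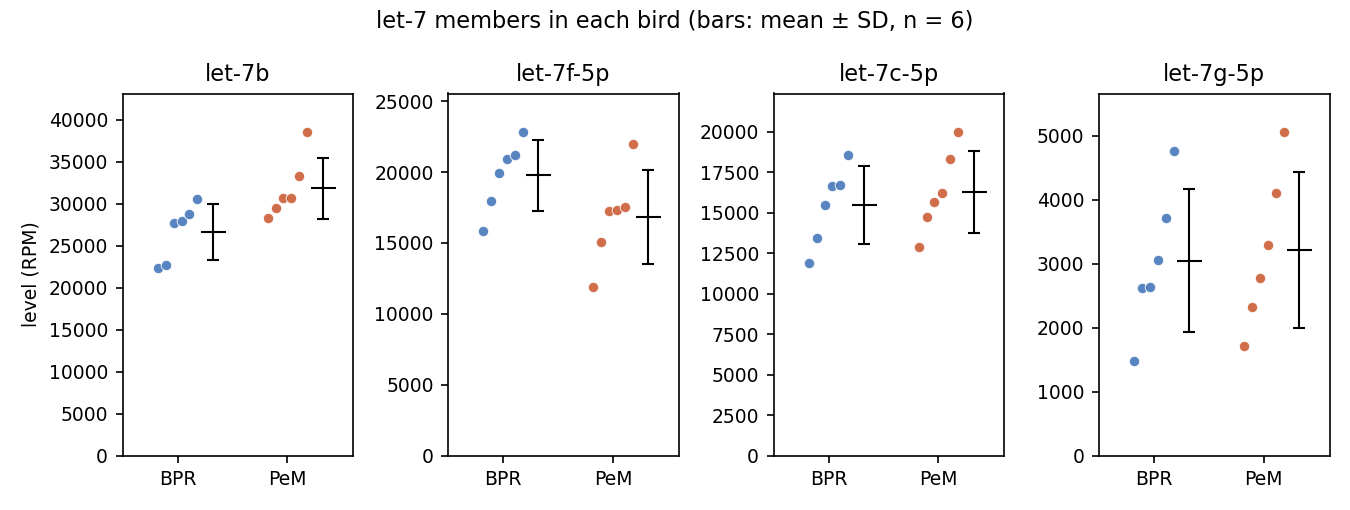
Level of each let-7 member in RPM in 6 BPR (blue) and 6 PeM (orange) birds, 1 point per bird sorted by level, with the mean ± SD beside them and axes that start at 0. For let-7b 4 PeM points lie above all BPR points, and for the other members the breeds overlap more.

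**Figure D3:**
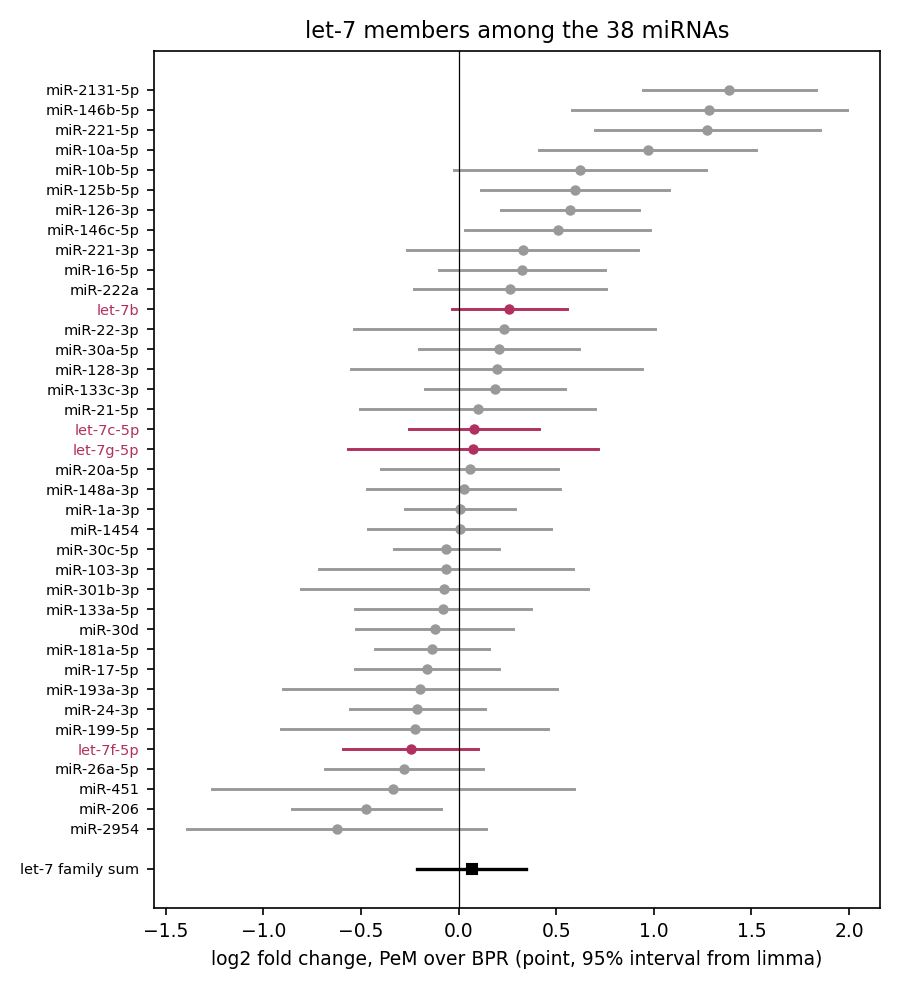
Log2 fold change of PeM over BPR for the 38 miRNAs (points) with 95% intervals from limma (lines), the let-7 members in red and the family sum as a black square. The intervals of the 4 members and of the family sum all include 0, with let-7b at 0.26 and let-7f-5p at -0.25.

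The ratio of a pair of members within a bird does not depend on how the library was scaled, and the 6 pairs were compared between the breeds. The ratio of let-7b to let-7f-5p was 1.05 to 1.76 in BPR and 1.4 to 2.47 in PeM, and 4 PeM birds were above all BPR birds. Its mean log2 value was 0.43 ± 0.28 in BPR and 0.93 ± 0.30 in PeM (SD, n = 6 birds each), a difference of 0.50 (standard error 0.17, 95% interval 0.13 to 0.88, exact permutation p = 0.0195). The ratio of let-7f-5p to let-7c-5p was 0.967 to 1.48 in BPR and 0.866 to 1.2 in PeM, with 5 BPR birds above all PeM birds and 3 PeM birds below all BPR birds. The difference of its mean log2 value was -0.32 (standard error 0.12, 95% interval -0.59 to -0.05, exact permutation p = 0.0303). Both of these pairs contain let-7f-5p.

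These 2 of 6 ratios with an unadjusted p under 0.05 are to be read against the whole table, where 177 of the 703 ratios between any 2 miRNAs (25.2%) had one. Adjusted over the 703 ratios, the p-values were 0.113 and 0.148, while 35 of the 703 ratios (4.98%) had an adjusted p under 0.05. Adjusted over the 6 pairs, both were 0.0909, and since the pairs were compared with earlier results of these data known, this is not independent evidence. Against all other 37 miRNAs, the ratio of let-7f-5p had an unadjusted p under 0.05 in 11 cases (29.7%) and that of let-7b in 8 (21.6%). That of let-7c-5p had one in 6 (16.2%) and that of let-7g-5p in 3 (8.11%), against 25.2% over all ratios of the table.

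The other 4 ratios did not pass. The ratio of let-7b to let-7c-5p differed by 0.18 on the log2 scale (95% interval -0.10 to 0.46, exact permutation p = 0.18). The 3 ratios with let-7g-5p had intervals reaching at least 0.45 on either side of 0, and that of let-7c-5p to let-7g-5p differed by less than 0.01 (95% interval -0.81 to 0.81, exact permutation p = 1). Counting error alone gave a standard error of 0.115 to 0.285 per bird for the log2 ratio of let-7b to let-7f-5p, against 0.252 to 0.621 for the ratios with let-7g-5p.

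The ratio of let-7b to let-7f-5p held its side of the threshold in all 12 comparisons that left out 1 bird, with differences of 0.43 to 0.59 and exact permutation p-values of 0.00866 to 0.0368. Without PeM bird 16 the difference was 0.55 (exact permutation p = 0.0195), without BPR bird 4 it was 0.43 (p = 0.0368) and without both it was 0.48 (p = 0.0397). BPR bird 4 had the lowest ratio of all birds, at 1.05. The ratio of let-7f-5p to let-7c-5p missed the threshold when BPR bird 7 or PeM birds 4, 5 or 10 were left out, with differences of -0.28, -0.29, -0.29 and -0.27 and exact permutation p-values of 0.0584, 0.0563, 0.0563 and 0.0563. Without both BPR bird 4 and PeM bird 16 it was -0.33 (exact permutation p = 0.0476). Depth moved with breed, as the totals above show, and its part in these ratios was not tested.

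**Figure D4:**
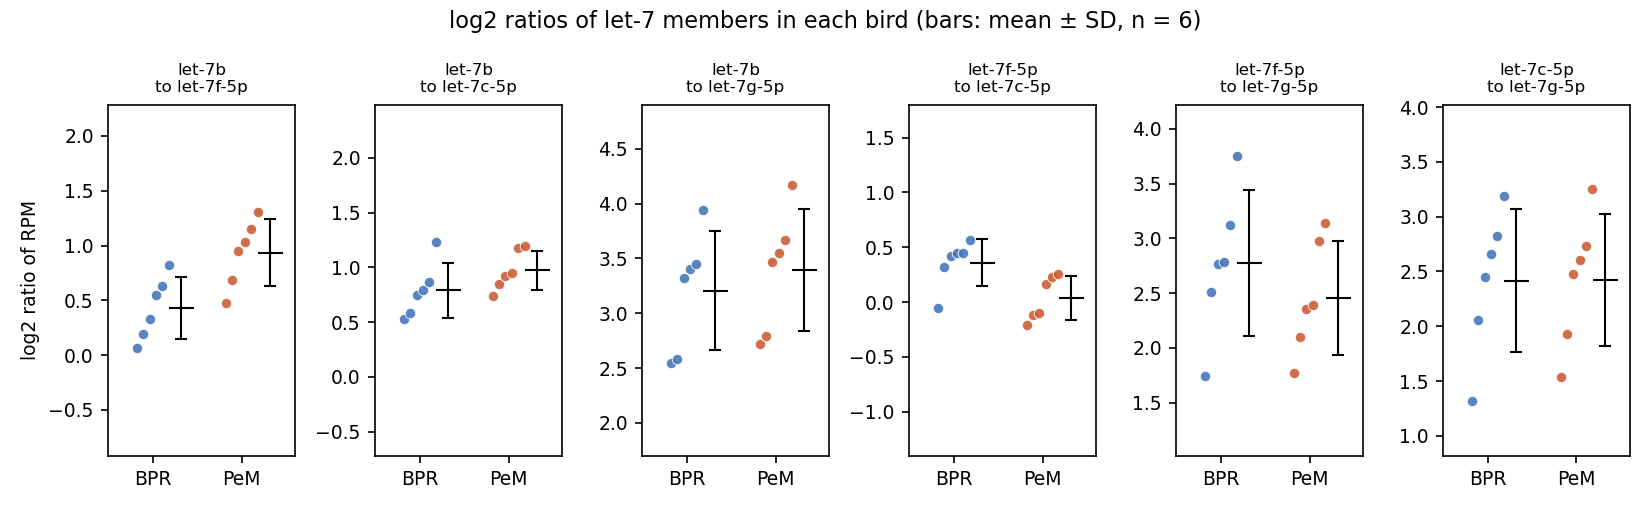
Log2 ratio of the RPM of each pair of let-7 members in 6 BPR (blue) and 6 PeM (orange) birds, 1 point per bird sorted by ratio, with the mean ± SD beside them and the same axis span in every panel. The breeds are most apart for let-7b to let-7f-5p, with means of 0.43 and 0.93, and for let-7f-5p to let-7c-5p, with means of 0.36 and 0.04.

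Values that were not whole reads were concentrated in the let-7 family. Of the 13 values that were not whole reads, 10 belonged to let-7 miRNAs, in 6 of the 12 birds, although these miRNAs supplied only 48 of the 456 values. In BPR birds 2 and 3 and in PeM bird 1 the values of both let-7b and let-7c-5p were fractional, with 211.29 and 141.71 reads in BPR bird 2, for example, and their sum was whole in each, at 353, 565 and 212 reads. Let-7g-5p was fractional in 4 birds, BPR birds 1 and 3 and PeM birds 8 and 16, with 14.64 reads in BPR bird 1 and 37.41 in PeM bird 16, and the family sum was not whole in these birds either. Let-7f-5p was whole in all 12 birds. Fractional values occurred in both breeds, and how they arose was not tested. The sum of let-7b and let-7c-5p, which does not depend on how reads were divided between them, averaged 42111 ± 4769 RPM in BPR against 48113 ± 5646 RPM in PeM (SD over 6 birds each), with 3 PeM birds above all BPR birds (log2 difference 0.19, exact permutation p = 0.0714). Whole values can also hold reads assigned to a wrong member, and how many there were was not tested.

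The SD between the birds of a breed is set beside the SD that the read counts alone would give, as a description, since the gap between them was not tested over 6 birds and reads are taken as independent. The SD of let-7b was 12.6% of its mean in BPR and 11.5% in PeM, where counting error gives 7.5% and 8.65%. That of let-7f-5p was 12.6% and 19.6%, against 8.75% and 12.2%, and that of let-7c-5p was 15.7% and 15.5%, against 9.95% and 12.3%. For let-7g-5p the SD was 36.6% and 38%, where counting error gives 23.8% and 29.8%. Over the 12 birds let-7b spanned 1.73-fold, let-7f-5p 1.91-fold, let-7c-5p 1.68-fold and let-7g-5p 3.42-fold.

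**Figure D5:**
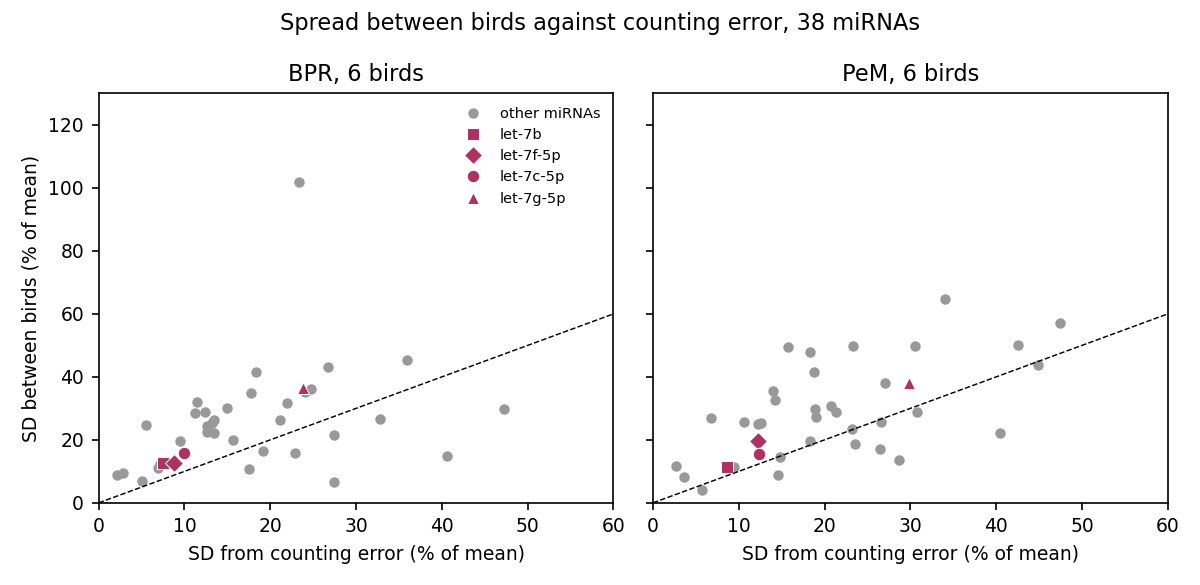
SD between the 6 birds of a breed against the SD that counting error alone would give, both in percent of the mean RPM, for the 38 miRNAs, with the let-7 members as red symbols and the line of equality dashed. All 4 members lie above the line in both breeds, as do most of the 38 miRNAs. Let-7g-5p lies at the larger values of both axes, with 36.6% in BPR and 38% in PeM.

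Whether the members moved together from bird to bird was examined after the breed mean of log2(RPM) had been subtracted. Let-7f-5p and let-7c-5p had the highest correlation of the 6 pairs (n = 12 birds, Pearson's r = 0.614, permutation p = 0.0401, adjusted p = 0.241 over the 6 pairs, and Spearman's rho = 0.566, permutation p = 0.0725). It was 0.502 within BPR and 0.719 within PeM. It was 0.444 to 0.776 when the birds were left out 1 at a time, with a permutation p under 0.05 in 6 of 12 cases. Without the 2 birds farthest from the median of let-7f-5p, a step that also narrows the range of that member, it was 0.119 and no longer held. Let-7b, in contrast, had an r of 0.057 with let-7f-5p (permutation p = 0.858, rho = 0.042) and of 0.441 with let-7c-5p (permutation p = 0.178, rho = 0.392). The 3 pairs with let-7g-5p had r between -0.0806 and 0.273, with permutation p-values of 0.412 to 0.81. When each bird was centred on its own median, the correlations of the pairs among let-7b, let-7f-5p and let-7c-5p were 0.736 to 0.879, and the subtracted median is common to both members of a pair. The permutation test was not run on pairs outside the family, so these p-values have no background.

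The 2 miRNAs outside the family whose bird-to-bird pattern was most like that of each member were found by the same r over 12 birds. For let-7b they were miR-133a-5p (0.578), from a muscle miRNA gene, and miR-20a-5p (0.462). For let-7f-5p they were miR-221-3p (0.704) and miR-21-5p (0.602). For let-7c-5p they were miR-221-3p (0.526) and miR-133a-5p (0.52), and for let-7g-5p miR-21-5p (0.751) and miR-133a-5p (0.67). The highest r among all 703 pairs of the table was 0.882 and the median was 0.02. The 2 miRNAs named for each member were picked as its highest r, so this median is no background for them. All points share the scaling of their library, and the values are a description of these birds.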

How the data were processed

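Small RNAs of breast muscle were sequenced in 12 birds. The authors trimmed adapters with bbduk after FastQC and used ArrayStar to align reads to the miRBase mature miRNAs of chicken. They dropped miRNAs with a mean below 5 reads in each breed, and the deposited RPM table holds 38 miRNAs. The submitters' processing notes name the genome build galGal5. Mismatches allowed and the miRBase release are not given in the sources used here. The deposited table also holds the authors' mean RPM and log2 values, log2 fold changes and p-values, which were not used.

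Breed and bird number came from the sample titles. Log2(RPM) of all 38 miRNAs was fitted with limma 3.58.1 in R 4.3.3 on breed, without a pseudocount (lowest value 507.6 RPM, 3.93 prior degrees of freedom), with Benjamini-Hochberg adjustment. Limma replaced the t-statistics of the study's methods. Exact permutation tests used Python 3.11.15 and those of correlations 100000 draws. Reads per bird were recovered from the RPM steps by trying totals from 1000 to 20000 and keeping the total with the most whole values. These reads may not be the reads sequenced. RefSeq (GRCg7b) served for gene names and neighbours within 100000 bases, and no coordinates are given because the builds differ. The limma fit was tested on simulated reads with known changes and the same spread beyond counting error for every miRNA. Such data check the code and not the let-7 results. The miRNAs named are the 4 members, their genomic neighbours, the markers, the 2 most abundant miRNAs and the 2 most like each member. Members, lists and tests were chosen with earlier results of these data known. Titles number the birds and do not say that breeds were paired. Alternatives were pseudocounts, scalings, variance models, a filter at 2000 RPM, a replicate block and leaving out birds. Those added after seeing the data were limma-voom and leaving out BPR bird 4 and PeM bird 16 together.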

Additional observations from a re-analysis of the deposited data

Results flagged for a closer look

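Each of the levels, family shares and ratios of the let-7 members, their sum and the total reads was screened with Dixon's criterion for 1 bird standing apart within its breed, in 32 groups of 6 birds. Chance gives such a bird in about 5% of groups, and 1 was found. The total of PeM bird 16 was 9120 reads. The other PeM birds had 3021 to 4858, and the gap took up 0.699 of the range. Without this bird the log2 difference of the family sum was 0.08 (exact permutation p = 0.448) and that of the ratio of let-7b to let-7f-5p was 0.55 (exact permutation p = 0.0195). No let-7 level, share or ratio had such a bird.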

How the results depend on the processing

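The number of let-7 members called between the breeds was 0 under all alternatives run, namely pseudocounts, scalings, limma-trend, no moderation, the filter, limma-voom, the exact permutation test, the replicate block and each bird left out. Over all miRNAs, the same thresholds were passed by 6 of 38 after centring on each bird's median and by 11 of 38 with the replicate block. Let-7b had an unadjusted p under 0.05 without moderation (0.0279) and in the exact permutation test (0.0195), where the count of 0 rests on its fold change of 1.196 against the threshold of 1.2. The family sum stayed above 0 and short of the threshold throughout, at 0.02 to 0.12 without 1 bird. The count of ratios with p under 0.05, 2 of 6, was 1 to 3 over the fits without 1 bird, and the cause was not tested. Let-7g-5p had no stable direction: its log2 fold change was -0.118 to 0.238 without 1 bird and -0.632 with the replicate block. The ratio of let-7c-5p to let-7g-5p was -0.216 to 0.179 without 1 bird.

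The count of order tests passed, 4 of 6, was 2 to 2 without 1 bird, because 5 birds cannot give a sign-flip p under 0.0625, and let-7f-5p over let-7c-5p in PeM was -0.0073 to 0.0861. The count of correlated pairs, 1 of 6, was 0 to 1 without 1 bird, 0 on RPM and 3 after centring on the median. This test was run on the pairs of members only. These counts thus have no share over all pairs of miRNAs beside them and are no result about the family. After centring, let-7c-5p with let-7g-5p was 0.383. On RPM, let-7f-5p with let-7g-5p was -0.00639. Without 1 bird, let-7b with let-7f-5p was -0.111 to 0.154, let-7f-5p with let-7g-5p -0.0896 to 0.353 and let-7c-5p with let-7g-5p -0.31 to 0.219.

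Numbers 1 and 4 occur in both breeds but belong to different animals, and the deviations of same-numbered birds correlated at 0.0285 and -0.173. With them as a replicate block, on 4 birds, the family sum differed by 0.0369. There 0 members were called, against 11 of all 38 miRNAs. No paired analysis was possible for the ratios, order and correlations, because 2 pairs cannot pass these tests. EdgeR was not run, because 38 miRNAs per bird were too few for the check of whole reads that was set for it. The values are RPM, and 10 of 48 let-7 values were not whole reads. Limma-voom was run on the same recovered reads, fractional values included. The read totals implied by the RPM values limit let-7g-5p most, with 6 reads in PeM bird 4, and whether these totals are the sequencing depth is not known.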
